A study of Saccharomyces cerevisiae with 2 samples.

Results

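Transcript counts of 8 genes of polyphosphate metabolism, VTC1, VTC2, VTC3, VTC4, PPN1, PPX1, PHM6 and PHM7, were compared between 2 libraries of the budding yeast Saccharomyces cerevisiae. The genes were taken by name from a table of 6603 open reading frames (ORFs), and all 8 were found. 1 library was made from strain CY2706 with wild-type TRA1 and 1 from strain CY3003 with the allele tra1-L3733A. Tra1 is a large protein related to kinases that belongs to both SAGA and NuA4, complexes that acetylate histones. Both strains were grown at 30 °C in YP medium with 2% glucose to an A600 of 2.0, and total RNA of whole cells was sequenced. The sources used here name no other allele of either strain and no phosphate content of the medium. The series' title and design text ask how expression in tra1-L3733A cells differs from that in TRA1 cells. With 1 library per strain there is no replicate check, so every difference below is between these libraries and has no p-value.

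Polyphosphate is a linear chain of phosphate units that yeast stores mainly in the vacuole, where it acts as a phosphate reserve and binds cations. The vacuolar transporter chaperone (VTC) complex makes the chain from ATP and moves it into the vacuole as it grows. Vtc4 is its catalytic subunit, Vtc1 is a small membrane subunit, and Vtc2 and Vtc3 are related subunits that take each other's place in different forms of the complex. Polyphosphatases break the chain down again. Ppn1 does so in the vacuole, and Ppx1 is an exopolyphosphatase of the cytosol, so the label vacuolar does not cover every gene here. PHM6 and PHM7 are named for phosphate metabolism because their transcripts responded to phosphate supply. The function of Phm6 is unknown, and Phm7 is a membrane protein related to calcium-permeable channels, so neither has an established part in making or breaking polyphosphate. When phosphate is scarce, the inhibitor Pho81 blocks the kinase complex Pho80-Pho85, and the transcription factor Pho4 stays in the nucleus and activates the genes of the phosphate-responsive (PHO) regulon.

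The upstream sequences of 6 of the genes are shown because they differ in the element that Pho4 binds. That element has the core CACGTG, which other factors such as Cbf1 also bind, and a weaker form CACGTT. Each line gives 300 bases upstream of the start codon in the R64 reference, 5′ to 3′ on the coding strand, with matches to either form in capitals. The windows start 300 bases before the start codon, except those of VTC2 and VTC3, which start 326 and 360 bases before it so that all CACGTG matches are shown.
VTC1 (chrV:302506-302805, forward strand): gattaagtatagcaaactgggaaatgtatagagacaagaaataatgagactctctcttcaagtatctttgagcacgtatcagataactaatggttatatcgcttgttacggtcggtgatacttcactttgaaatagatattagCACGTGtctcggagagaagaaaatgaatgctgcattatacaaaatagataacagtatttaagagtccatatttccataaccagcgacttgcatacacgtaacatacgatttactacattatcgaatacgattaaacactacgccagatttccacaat
VTC2 (chrVI:131484-131783, forward strand): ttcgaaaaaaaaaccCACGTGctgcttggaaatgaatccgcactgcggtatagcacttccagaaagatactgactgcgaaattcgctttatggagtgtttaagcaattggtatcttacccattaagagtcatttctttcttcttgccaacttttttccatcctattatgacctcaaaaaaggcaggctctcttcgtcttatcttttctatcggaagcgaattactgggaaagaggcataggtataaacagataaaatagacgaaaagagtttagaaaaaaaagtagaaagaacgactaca
VTC3 (chrXVI:517079-517378, reverse strand): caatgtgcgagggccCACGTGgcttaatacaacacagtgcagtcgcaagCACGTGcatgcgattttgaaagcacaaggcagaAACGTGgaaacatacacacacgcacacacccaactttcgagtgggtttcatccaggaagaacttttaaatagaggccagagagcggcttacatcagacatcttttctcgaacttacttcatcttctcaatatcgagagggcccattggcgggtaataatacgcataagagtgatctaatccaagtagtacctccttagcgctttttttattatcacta
VTC4 (chrX:413400-413699, reverse strand): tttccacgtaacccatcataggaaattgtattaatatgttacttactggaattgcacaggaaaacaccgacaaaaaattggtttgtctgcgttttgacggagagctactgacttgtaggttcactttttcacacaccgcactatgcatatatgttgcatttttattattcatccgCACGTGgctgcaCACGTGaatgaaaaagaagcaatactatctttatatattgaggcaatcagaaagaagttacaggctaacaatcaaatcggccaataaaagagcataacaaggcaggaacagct
PHM6 (chrIV:1022322-1022621, reverse strand): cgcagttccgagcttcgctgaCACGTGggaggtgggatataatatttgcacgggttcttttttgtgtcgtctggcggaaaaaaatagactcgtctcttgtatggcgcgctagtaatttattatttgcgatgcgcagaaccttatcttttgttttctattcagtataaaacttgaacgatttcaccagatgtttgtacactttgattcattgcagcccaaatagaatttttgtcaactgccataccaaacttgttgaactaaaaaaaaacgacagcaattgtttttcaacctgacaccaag
PHM7 (chrXV:162056-162355, forward strand): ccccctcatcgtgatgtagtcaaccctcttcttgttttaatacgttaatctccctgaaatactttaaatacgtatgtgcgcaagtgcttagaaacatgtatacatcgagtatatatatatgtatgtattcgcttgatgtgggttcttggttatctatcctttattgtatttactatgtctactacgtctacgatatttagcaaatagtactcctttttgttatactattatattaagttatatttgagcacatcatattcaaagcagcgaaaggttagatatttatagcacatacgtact

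CACGTG was found within 500 bases upstream of the start codon in 5 of the 8 genes, VTC1, VTC2, VTC3, VTC4 and PHM6. Of 6000 R64 coding genes with a full window, 374 (6.23%) held it. VTC1 had 1 match at position -157, VTC2 had 1 at -311 and PHM6 had 1 at -279, counted from the start codon to the match's first base. VTC3 and VTC4 each had 2, at -345 and -311 for VTC3 and at -125 and -113 for VTC4. CACGTT, searched on both strands, was found at -278 in VTC3 and, outside the window shown, at -434 in PHM6, and in 16.0% of all windows. PPN1, PPX1 and PHM7 held neither form. TATAAA on the coding strand was found at -85 in VTC2, -405 in VTC4, -77 in PPN1 and -138 in PHM6, and in 40.4% of all windows. The 500-base windows of VTC1 and PHM7 reach into the neighbouring ORF, which lies 478 and 341 bases away in the files' coordinates. A match describes the sequence and does not show that a factor binds there.

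**Figure D1:**
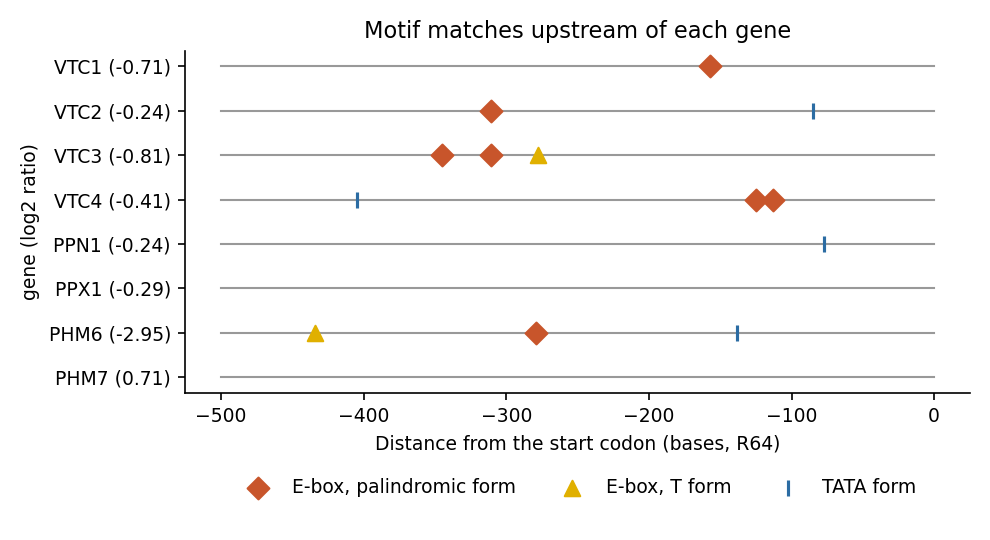
Positions of motif matches in the 500 bases upstream of each gene's start codon in R64 (x axis, bases from the start codon), with 1 line per gene and its log2 ratio of tra1-L3733A to TRA1 in brackets. Diamonds mark the palindromic E-box CACGTG, triangles the form CACGTT and bars TATAAA. The 5 genes with a diamond had log2 ratios from -2.95 to -0.24, PPN1 was at -0.24, and PPX1 and PHM7, which have no match of any kind, were at -0.29 and 0.71.

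The TRA1 library held 11564964 reads in ORFs and the tra1-L3733A library 9970836. The 8 genes took 14051 and 8616 of these, or 0.121% and 0.0864%. None of the 8 overlaps another listed ORF, each is a single-exon gene in R64, and every 35-base stretch of each occurs once in the R64 genome, so reads of this length from one member should not be shared with another locus of that genome. Abundance is given as CPM, the count scaled to 1e6 reads of library size, with library sizes adjusted by TMM (trimmed mean of M-values). Values are given first for the TRA1 library and then for tra1-L3733A. Ratios are tra1-L3733A over TRA1 with a 95% exact (Clopper-Pearson) counting interval, which does not cover the spread between cultures. An ORF was called lower or higher by a size rule that needs at least 20 reads over both libraries, a ratio at least 1.5-fold from 1 and an interval that excludes 1. Of 5 genes specific to a-cells 0 were called, with 935 and 905 CPM summed, and of 4 alpha-cell genes 3 were called higher, with 55.8 and 94.4 CPM summed. The part of these mating-type transcripts in the results below was not tested.

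Of the genes for the VTC complex, VTC1 and VTC3 were lower with tra1-L3733A by the size rule, and VTC2 and VTC4 had ratios below 1 that did not reach it. VTC3 (YPL019C, XVI, 514509 to 517016 by the deposited coordinates) had 2143 and 983 reads, or 179 and 102 CPM. Its ratio was 0.569 (0.527 to 0.614), and it was called lower. VTC1 (YER072W, V, 302804 to 303193) had 2419 and 1195 reads, or 202 and 124 CPM, a ratio of 0.613 (0.572 to 0.658), and was called lower too. VTC4 (YJL012C, X, 411227 to 413392), the catalytic subunit, had 3914 and 2377 reads, or 327 and 247 CPM. Its ratio of 0.754 (0.716 to 0.794) lay below 1 but inside the 1.5-fold limit, so it was not called. VTC2 (YFL004W, VI, 131805 to 134291) had 2076 and 1415 reads, or 174 and 147 CPM, and was the VTC gene nearest to 1, at 0.846 (0.790 to 0.906). The intervals of VTC1 and VTC3 overlapped each other and neither overlapped that of VTC2 or VTC4. Summed over VTC1 to VTC4, 10552 and 5970 reads gave a ratio of 0.702 (0.680 to 0.725). A lower share of cells that express these genes and less RNA per cell cannot be told apart in RNA from whole cultures.

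Neither polyphosphatase gene among the 8, PPN1 or PPX1, reached the size rule. PPN1 (YDR452W, IV, 1362871 to 1364895) had 1903 and 1301 reads, or 159 and 135 CPM, a ratio of 0.849 (0.790 to 0.911). PPX1 (YHR201C, VIII, 499950 to 501143) had 1088 and 717 reads, or 90.9 and 74.4 CPM, a ratio of 0.818 (0.743 to 0.900). Both intervals lay below 1, neither gene was called, and their intervals overlapped. VTC1 and VTC3 thus stood farther below 1 than either polyphosphatase gene, by intervals that did not overlap, whereas the intervals of VTC4 and VTC2 overlapped those of both.

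The PHM genes lay at opposite ends of the range. PHM6 (YDR281C, IV, 1022004 to 1022318) had 33 and 3 reads, or 2.76 and 0.311 CPM. Its ratio was 0.113 (0.0221 to 0.360) and it was called lower, on few reads: its count in the tra1-L3733A library equals the 3 reads that a count of 0 would allow. PHM7 (YOL084W, XV, 162356 to 165331) was the member with more reads in the tra1-L3733A library, 625 against 475, although that library is the smaller. This is 64.8 against 39.7 CPM, a ratio of 1.63 (1.45 to 1.84), and PHM7 was called higher. Its interval lay above those of the 7 other genes.

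**Figure D2:**
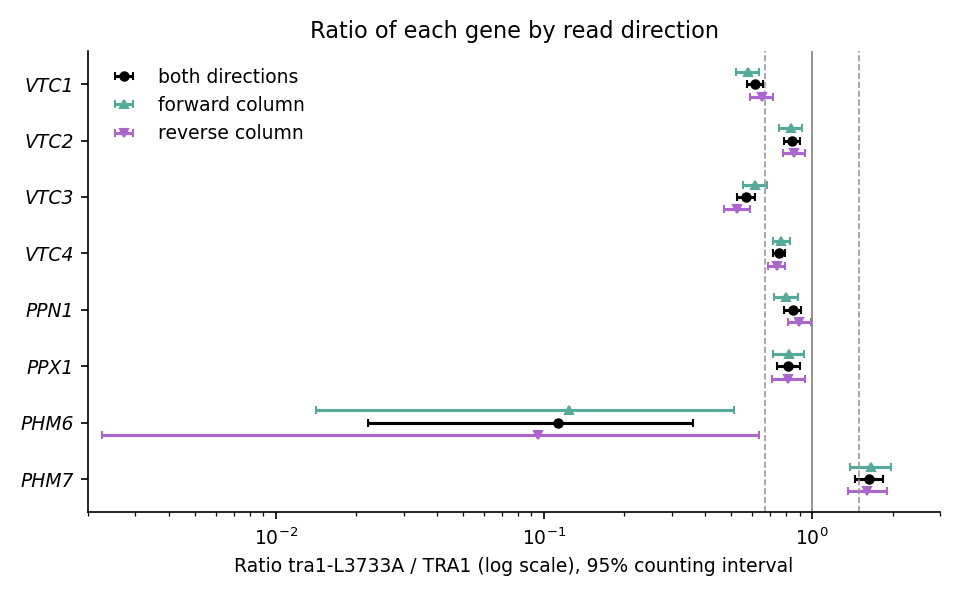
Ratio of tra1-L3733A to TRA1 for each gene (x axis, log scale) with 95% counting intervals, from all reads (black) and from each read column alone (green, forward, and purple, reverse). The solid line marks 1 and the dashed lines the 1.5-fold limits. PHM7 is right of 1 in every column and the 7 other genes are left of it.

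By the size rule 3 of the 8 genes were lower (VTC1, VTC3 and PHM6), against 5.46% of the 6248 ORFs tested. 1 was higher (PHM7), against 2.80% of the ORFs tested. The other 4 (VTC2, VTC4, PPN1 and PPX1) passed neither way. The median log2 ratio of the 8 genes was -0.35, and that of all ORFs tested was -0.00. In all, 7 of the 8 log2 ratios lay below 0, as did 50.4% of all ORFs tested. With scaling by total counts 515 ORFs were lower and 91 higher, in place of 341 and 175, and the same 4 members were called in the same directions. Of the 28 pairs among the 8 genes, 21 had ratio intervals that did not overlap. PHM6 and PHM7 were each apart from every other member. The share of such pairs among ORFs at large was not computed, so the count is not shown to be particular to the 8 genes.

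**Figure D3:**
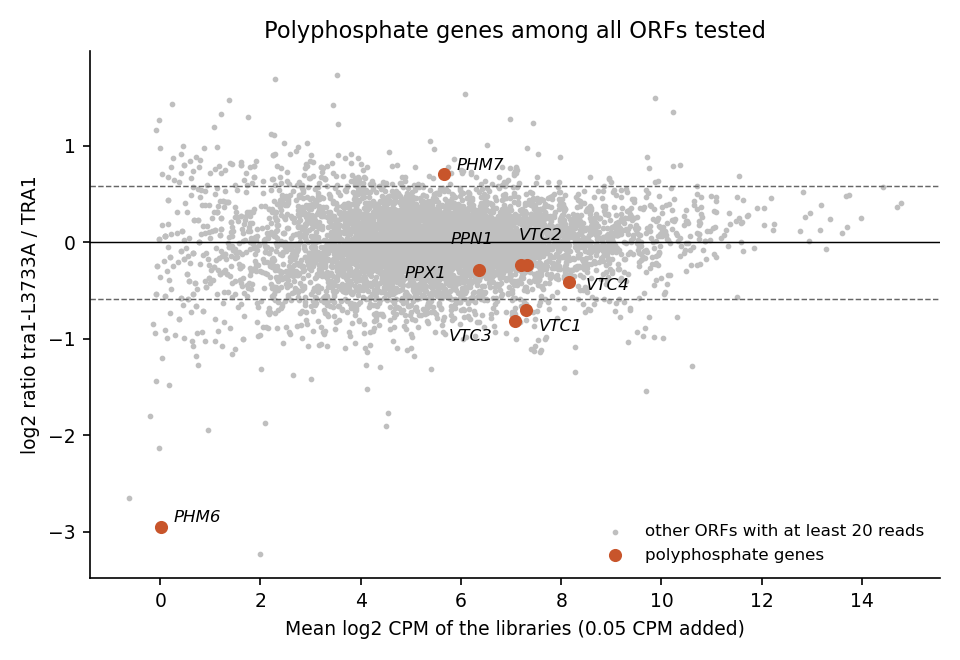
Log2 ratio of tra1-L3733A to TRA1 (y axis) against mean log2 CPM of both libraries (x axis, with 0.05 CPM added) for every ORF with at least 20 reads (grey) and the 8 genes (orange). Dashed lines mark the 1.5-fold limits. VTC1, VTC3 and PHM6 lie below the lower limit, PHM7 lies above the upper one, and PHM6 sits at the low-abundance edge.

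The read directions gave the same side of 1 for all 8 genes. For VTC1 the ratio was 0.576 (0.519 to 0.638) on forward reads and 0.650 (0.590 to 0.715) on reverse reads. For VTC3 it was 0.614 (0.552 to 0.682) and 0.526 (0.470 to 0.587), and for PHM7 it was 1.66 (1.39 to 1.98) and 1.61 (1.36 to 1.91). PHM6 had 20 forward and 13 reverse reads with TRA1, and 2 and 1 with tra1-L3733A. The forward and reverse intervals of each of these genes overlapped.

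Levels per length were used to order the genes within a library. Beyond division by ORF span, effects of length or sequence on read yield were not corrected, and the intervals cover counting error only. In CPM per kilobase of ORF span, VTC1 stood first in the TRA1 library at 520 (499 to 541, exact Poisson interval) and VTC4 second at 151 (146 to 156). PPN1 at 78.6, PPX1 at 76.2, VTC3 at 71.4 and VTC2 at 69.8 followed. In that order PPN1 and PPX1, PPX1 and VTC3, and VTC3 and VTC2 did not differ beyond counting error. PHM7 at 13.3 (12.2 to 14.6) and PHM6 at 8.78 (6.05 to 12.3) came last, and their ratio of levels, PHM6 over PHM7, was 0.658 (0.448 to 0.937). In the tra1-L3733A library the order was VTC1 at 319 (301 to 337), VTC4 at 114 (109 to 119), PPN1 at 66.7, PPX1 at 62.4, VTC2 at 59.1, VTC3 at 40.7 (38.2 to 43.3), PHM7 at 21.8 (20.1 to 23.6) and PHM6 at 0.991 (0.204 to 2.90). PPN1 and PPX1, and PPX1 and VTC2, again did not differ beyond counting error. VTC3 now stood apart below VTC2, and VTC3 and VTC2 had changed places.

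**Figure D4:**
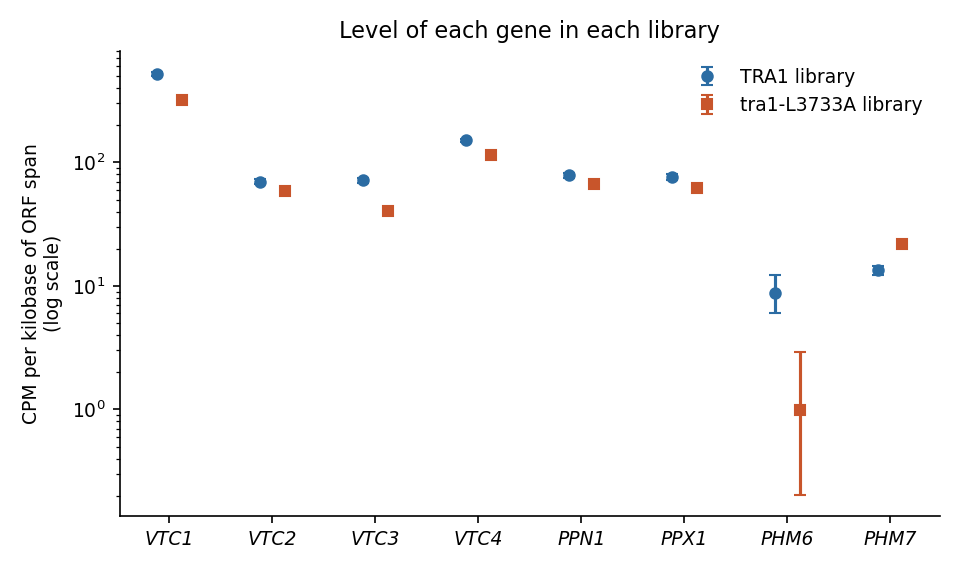
Level of each gene in CPM per kilobase of ORF span (y axis, log scale) in the TRA1 library (circles) and the tra1-L3733A library (squares), 1 library each, with 95% exact Poisson intervals that cover counting error only. PHM7 has its square above its circle, and the 7 other genes have it below.

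The balance of the alternative subunits Vtc2 and Vtc3 differed between the libraries at the transcript level. Per length, VTC2 was at 0.977 times VTC3 (0.919 to 1.04) in the TRA1 library and at 1.45 times VTC3 (1.34 to 1.58) in the tra1-L3733A library, and these intervals did not overlap. Of the summed level per length of the 4 VTC genes, VTC3 made up 8.80% with TRA1 and 7.64% with tra1-L3733A, and VTC2 made up 8.59% and 11.1%. VTC1 held 64% and 59.9%, and VTC4 18.6% and 21.4%. VTC1 over VTC4 was 3.44 (3.27 to 3.62) and 2.80 (2.61 to 3.0). These are read counts per length, with the limits given above, and subunit amounts in the complex were not measured. A comparison within a library does not depend on how libraries are scaled.

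The calls were set beside the upstream sequences shown above. Of the 5 genes with CACGTG, 3 were called lower (VTC1, VTC3 and PHM6) and 0 higher, and the other 2, VTC2 and VTC4, had ratios below 1. Of the 3 genes without it 0 were lower and 1, PHM7, was higher, and the other 2, PPN1 and PPX1, also had ratios below 1, at 0.849 and 0.818, with intervals that overlapped that of VTC2. Among all 359 tested ORFs with CACGTG in their R64 window, 7.24% were lower, against 5.32% of the 5321 without it, and their median log2 ratios were 0.00 and -0.00. Among the other PHO regulon targets taken up below, 7 of the 9 with CACGTG were lower, and 1 of the 3 without it. The 359 ORFs include these 9 targets and the 5 members, which supply 7 and 3 of the 26 lower calls. The 7.24% is therefore not a background free of the genes under study. The part of CACGTG in these calls was not tested. The number of matches did not order the VTC genes, since VTC3 and VTC4 had 2 each and ratios of 0.569 and 0.754, and VTC1 and VTC2 had 1 each and ratios of 0.613 and 0.846.

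Neighbouring ORFs were compared in the same way. Of the 16 ORFs next to the 8 genes, 3 were lower and 0 higher, against 5.46% and 2.80% of all ORFs tested. CTF19, a kinetochore gene, lies divergent from VTC3 across 632 bases and so shares its upstream region. It is also among the other PHO regulon targets examined below. CTF19 was at 0.884 (0.721 to 1.08), and it overlaps IRC15. TDA2, divergent from VTC1 across 478 bases, was at 0.830 (0.654 to 1.05). YOL085C, divergent from PHM7 across 341 bases, was at 1.34 (0.756 to 2.37) on 26 and 28 reads. The 3 lower neighbours were ALD5, downstream of VTC1, at 0.619 (0.591 to 0.647), RPC17, upstream of VTC4, at 0.634 (0.516 to 0.776), and YHP1, divergent from PPN1, at 0.654 (0.560 to 0.763). YHR202W, divergent from PPX1, was at 0.913 (0.754 to 1.10). The intervals of CTF19, TDA2, YOL085C and YHR202W included 1, and that of YHP1 did not. That of CTF19 lay above VTC3's, whereas those of TDA2 and YOL085C also overlapped those of VTC1 and PHM7, respectively.

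Most of the other PHO regulon genes examined were lower. Of 12 such targets outside the 8 genes, 8 were lower and 0 higher, with a median log2 ratio of -0.90. For this list and those below, the shares over all ORFs tested were 5.46% lower and 2.80% higher. The lists were chosen with earlier results of these data known. SPL2, a regulator of phosphate transport, was at 0.103 (0.0519 to 0.185), close to PHM6. The acid phosphatase gene PHO11 was at 0.267 (0.216 to 0.328). Its reads may be shared with the near-identical PHO12, which was also called lower, so these 2 calls may not be separate. SPL2 and PHO11 were named because their intervals lie farthest from 1 among the 12, whose ratios ran from 0.103 to 0.887. The ratios of VTC1 to VTC4 lay within that range. It is wide, since VTC2 itself stood at percentile 22.9 of all ORFs tested, so lying within it does not set these genes apart. VTC3 at 0.569 stood beside PHO81, the inhibitor of Pho80-Pho85, at 0.579 (0.529 to 0.633). Among 5 genes of PHO signalling 1, PHO81, was lower and 0 were higher, and the cyclin gene PHO80 was at 1.41 (1.09 to 1.81) on 121 and 137 reads. The gene for Pho4 itself, named after its values were seen, was at 0.966 (0.853 to 1.09).

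Among 6 other genes of polyphosphate and of inositol pyrophosphates, the signalling molecules that SPX domains sense, 1 was lower and 0 higher, with a median of -0.12. The lower one was PPN2, for a further vacuolar endopolyphosphatase, at 0.618 (0.557 to 0.686) on 1084 and 540 reads. That is below PPN1 and PPX1, whose intervals it did not overlap, and close to VTC1. SIW14, for a phosphatase of inositol pyrophosphates, was at 0.877 (0.773 to 0.993). VTC5, for a later-found subunit of the VTC complex and named after its values were seen, was at 0.932 (0.820 to 1.06), an interval that overlaps that of VTC2 and none of VTC1, VTC3 and VTC4. Of 7 other genes for proteins with an SPX domain, which Vtc2, Vtc3 and Vtc4 also carry, 1 was lower (PHO81) and 0 higher, with a median of -0.15, and SYG1, which overlaps YIL047C-A, was at 1.35 (1.29 to 1.42).

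In 3 lists of other vacuolar genes, for hydrolases, the proton pump and cation transporters, 0 genes were called. Of all ORFs tested 5.46% were lower and 2.80% higher, so lists this short may hold 0 called genes at those shares. Of 9 vacuolar hydrolase genes 0 were lower and 0 higher, with a median of -0.01, the aminopeptidase gene LAP4 at 0.704 (0.657 to 0.754) and the protease gene PEP4 at 1.29 (1.26 to 1.32). Of 15 genes for the vacuolar proton pump, which energises the membrane, 0 passed either way, with a median of -0.06, VMA10 at 0.771 (0.712 to 0.834) and VMA13 at 1.23 (1.19 to 1.27). Of 8 vacuolar cation transporter genes 0 passed, with a median of 0.14, the calcium pump gene PMC1 at 0.761 (0.704 to 0.821) and the iron transporter gene CCC1 at 1.24 (1.13 to 1.36). These vacuolar lists thus had medians near that of all ORFs tested. Their lowest genes, LAP4, VMA10 and PMC1, had intervals that overlapped that of VTC4, and that of LAP4 just overlapped that of VTC1. VTC1 and VTC3 were called lower, whereas VTC2 and VTC4, like the genes of these lists, were not. Of 3 relatives of PHM7 in the same channel-like family 0 passed, with SPO75 at 1.16 (0.972 to 1.37) and RSN1 at 0.828 (0.773 to 0.888), and neither interval overlapped that of PHM7.

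**Figure D5:**
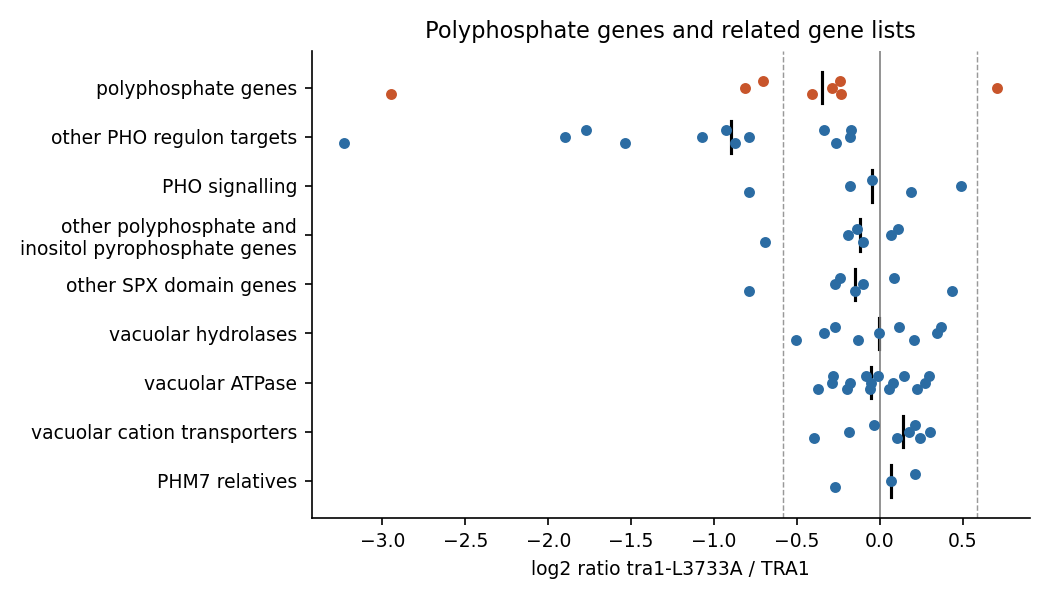
Log2 ratio of tra1-L3733A to TRA1 (x axis) for the 8 polyphosphate genes (orange) and for the genes of 8 related lists (blue), 1 point per gene, with the median of each list as a black bar and the 1.5-fold limits dashed. The 8 genes had a median of -0.35, between the other PHO regulon targets at -0.90 and the vacuolar lists, which lay between -0.06 and 0.14.

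By its ratio alone, the VTC sum was most like LAP4 at 0.704 (0.657 to 0.754), YRB1, for a Ran-binding protein, at 0.699 (0.668 to 0.732) and HPT1, for an enzyme of purine salvage, at 0.698 (0.660 to 0.738). These had the smallest differences in log2 ratio from the sum, 0.004, 0.006 and 0.010, among 996 named ORFs that overlap no other and lie within 2-fold of the mean CPM of the 4 genes. The likeness rests on 2 libraries.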

How the data were processed

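Per the file headers, the deposited files give raw read counts per ORF in columns fr and rr, which were taken as forward and reverse reads and summed, and a coverage column of reads per base, which equals the summed counts over the ORF span to 1e-06 in all 13206 entries and was not used further. The aligner Novoalign is listed, per the submitters' processing notes. The sources used here give no version of it, no genome build and no library strandedness. The labels' protocols give 13014880 and 11156078 reads of 35 nt and RNA integrity above 8.9.

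Of 5916 ORFs matched to R64 by identifier, 913 have the same start and end there, so file coordinates and R64 were kept apart. Upstream sequences and motifs come from R64 (RefSeq) alone.

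Counts were scaled by TMM in edgeR 4.0.16 (R 4.3.3). Log2 ratios used 0.5 added reads. No test is possible with 1 library per strain. Intervals cover counting error only, and without molecular identifiers reads need not be independent molecules. The size rule was tested on simulated counts with counting error only, which cannot show how it behaves under spread between cultures. A planned comparison of protein sequences was not run. Alternatives were other scalings (total counts, lane reads, DESeq2 1.42.0 size factors), read filters, read directions, thresholds, added reads, and removal of trends with ORF length, abundance or GC (lowess, statsmodels 0.14.6). The members and lists were chosen with earlier results of these data known. Named genes are the 8 members, from each list the 2 whose interval bound lies farthest from 1, and the 3 ORFs most like the VTC sum. The neighbouring ORFs, PHO4 and VTC5 fall outside this rule and were named after their values were seen.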

Additional observations from a re-analysis of the deposited data

How the results depend on the processing

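The summed VTC ratio of 0.702 became 0.656 with scaling by total counts and 0.660 with lane reads, and lay between 0.696 and 0.717 under the 10 other alternatives. Read filters and added reads do not enter this sum, so those alternatives could not move it. With a threshold of 2-fold 1 member was lower (PHM6) and 0 higher, and at 1.2-fold 5 were lower (VTC1, VTC3, VTC4, PPX1 and PHM6) and 1 higher, against 57 lower and 20 higher, and 1093 lower and 886 higher, of all ORFs tested. PHM6 was left out by the 100-read filter and with reverse reads only, where it has too few reads, and 2 members were then lower. The median log2 ratio of the members ranged from -0.45 to -0.29. The ratio of PHM6 ranged from 0.105 to 0.261, the highest with 5 reads added, and that of PHM7 from 1.53 to 1.67. Lane reads gave 500 lower and 98 higher ORFs. Depth limits PHM6 most. No replicate could be left out, and no paired analysis was possible because each strain has 1 library.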
